A study of Mus musculus with 9 samples.

Results

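Heat shock chaperone genes were followed in the colonic mucosa of mice that differ in gastrin. The set was 10 named genes, taken by symbol with every probe set annotated to them: Hsph1, Hspa1b, Hspa8, Hsp90aa1, Hsp90ab1, Hspd1, Hspe1, Dnaja1, Dnajb1 and Chordc1. Of these, 9 had a probe set in the annotation used here, and all 9 were tested among 11274 genes tested of 18194 represented. No probe set was named for Hsp90ab1, so it was not analysed here. The 9 genes had 23 probe sets, none of them annotated to another gene as well, and 21 reached the level needed for testing. The annotation does not show whether a probe set also picks up other sequences, and that was not tested.

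Each genotype had 3 arrays. hGAS mice were transgenic for hGAS, which their labels name without a promoter and without saying whether the mice also kept their own gastrin gene. GasKO mice (Gas-/-) lacked gastrin, and WT mice were wild type. All were males on the C57BL/6 background, killed at 6 weeks, and the mucosa was lifted off with PBS injected beneath it before RNA was taken up in Trizol. The labels do not say that replicates were separate mice or whether animals were pooled, so each p-value reflects how far these samples spread, and that spread may be technical. The series title names proliferation that depends on progastrin, the precursor made from the gastrin gene.

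Heat shock proteins are chaperones, which bind unfolded or newly made proteins and help them reach or regain their shape. Hsp70 proteins bind short exposed stretches of a client in a cycle driven by ATP. J domain proteins (Dnaja1, Dnajb1) start that cycle, and Hsp110 proteins such as the product of Hsph1 help it release its nucleotide. Hsp90 takes over clients that are nearly folded, with the help of co-chaperones such as the product of Chordc1. Hspd1 and Hspe1 encode the barrel and lid of the mitochondrial chaperonin. Many of these genes share a regulator, heat shock factor 1, which binds heat shock elements: repeats of GAA and its complement TTC in alternating orientation. In the gut, as elsewhere, they are known to rise with heat, loss of blood supply and inflammation.

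The promoters of the genes are shown first because the element is what this family is known to share. RefSeq promoter windows (assembly GRCm38.p6, 250 bases before to 50 after an annotated start) were at hand for 7 of the 10: Hsph1, Hspa1b, Hspd1, Hspe1, Dnaja1, Dnajb1 and Chordc1. Each line gives the stretch around the longest run of alternating units in the gene's first window, 5′ to 3′ on the gene's strand, with the run in capitals. The Hsph1 stretch lies at chr5:149636280-149636308 (minus strand) and the Hspa1b stretch at chr17:34959327-34959350 (minus). The Hspd1 stretch lies at chr1:55088051-55088084 (minus) and that of Hspe1 at the same bases read on the plus strand. The Dnaja1 stretch lies at chr4:40722336-40722359 (plus) and the Chordc1 stretch at chr9:18292255-18292293 (plus).
Chordc1: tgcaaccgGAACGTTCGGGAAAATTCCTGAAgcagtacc
Hspe1: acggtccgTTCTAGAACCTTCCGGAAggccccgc
Hspd1: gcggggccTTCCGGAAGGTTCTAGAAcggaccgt
Hsph1: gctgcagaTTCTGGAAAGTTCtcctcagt
Hspa1b: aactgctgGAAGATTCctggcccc
Dnaja1: agcctctaGAAAATTCtacgaggc

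Runs of 2 units were searched as GAANNTTC or TTCNNGAA. Runs of 3 units had NNGAA after GAANNTTC, or NNTTC after TTCNNGAA, so that every longer run also contains a shorter one, and both strands were read. A run of 2 units stood in the windows of 6 of the 7 genes, all but Dnajb1, against 17.0% of 27025 genes in the table. A run of 3 units stood in 4 of the 7 (Hsph1, Hspd1, Hspe1 and Chordc1), against 0.662% of genes. Only 8 genes of the table, 0.0296%, had 4 or more units in a row, and Hspd1, Hspe1 and Chordc1 were among them. Chordc1 alone had 5, from 4 bases before its annotated start to 18 after it. The 4 units of Hspd1 and Hspe1 are one and the same element between a divergent gene pair, so it is 1 match counted under both names. CCAAT, or ATTGG on the other strand, is another common promoter motif. It stood in 5 of the 7 (Hsph1, Hspa1b, Hspd1, Dnaja1 and Dnajb1), against 41.1% of genes. These are matches of letters in a window, and binding was not measured.

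**Figure D1:**
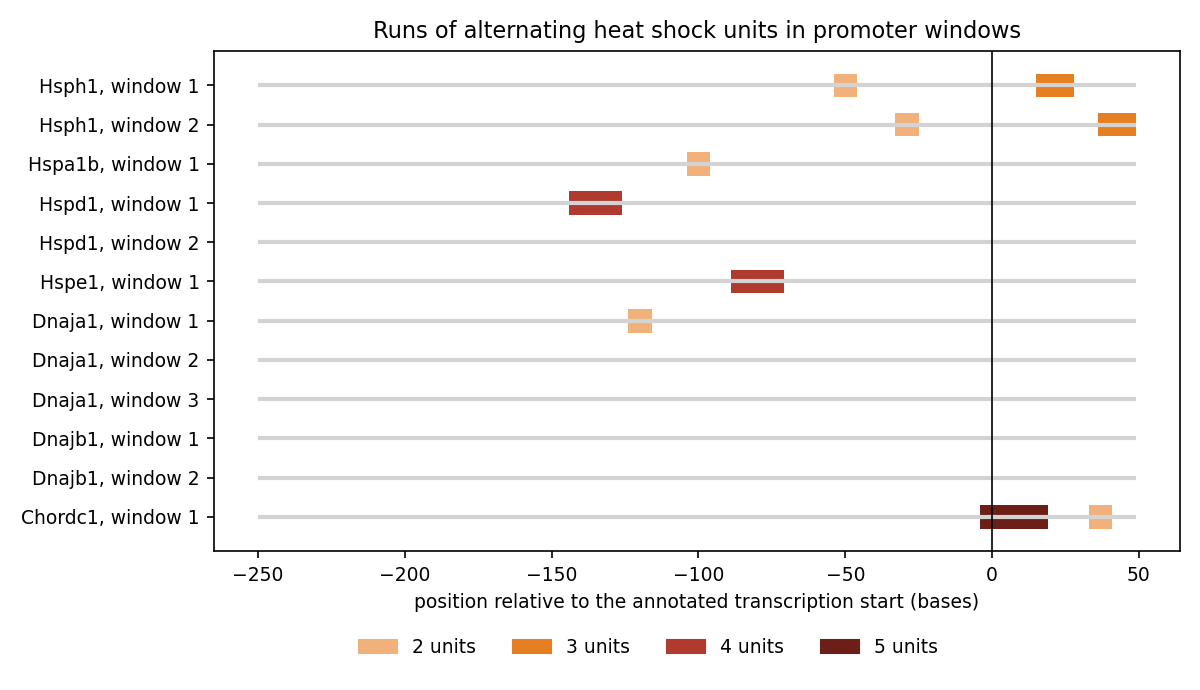
Runs of alternating heat shock units in each RefSeq promoter window of 7 chaperone genes. The horizontal axis is the position in bases relative to the annotated start, grey lines are windows and coloured blocks are runs of 2 to 5 units. Genes with several annotated starts have several windows, and the longest run, of 5 units, lies across the start of Chordc1.

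The values below are deposited log2 expression values made with GCRMA, a method that corrects each probe's background from its sequence and summarises probes into probe sets. One unit is a doubling. A probe set's values can be compared between arrays but not with those of another probe set. Where a gene had several probe sets, the one with the highest mean stands for it, and "called" means an adjusted p under 0.05 by limma, with Benjamini-Hochberg adjustment over all 11274 genes. Array medians ran from 4.13 to 4.16. On the first principal component, 53.9% of the variance, GasKO arrays lay at 25.8 to 30.1 and the other 6 arrays at -19.2 to -8.38. WT replicate 3 stood apart on the second component at 24.95, and calls that change without it are named with their values. Gast, the targeted gene, was at background everywhere, with 1.95 ± 0.01 in hGAS, 2.08 ± 0.08 in GasKO and 1.96 ± 0.02 in WT arrays (log2, SD, n = 3 each), so it checks neither genotype. The epithelial genes Epcam (13.7 in hGAS, 14.02 in GasKO and 13.7 in WT) and Muc2 (14.8, 14.7 and 14.5 in the same order) were strongly expressed, but so was the smooth muscle gene Myh11 (13.1, 13.2 and 13.2). Epcam was called as higher in GasKO against WT and as lower in hGAS against GasKO. In bulk tissue, fewer cells of a type and less RNA per cell cannot be told apart.

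All 9 chaperone genes had their lowest mean in GasKO mucosa, their middle mean in WT and their highest in hGAS. Of all genes tested, 21.7% had that order. The chaperone genes were chosen with earlier results of these data known, so the shares over all genes give scale and are not a test. In hGAS against GasKO mucosa 7 of the 9 genes rose, by 1.22-fold to 1.97-fold, where 16.6% of all genes were called and 8.05% were called as higher. In GasKO against WT mucosa 5 of the 9 fell, by 0.21 to 0.42 on the log2 scale, where 12.1% were called and 5.48% were called as lower. In hGAS against WT mucosa 0 of 9 were called by limma, 2 were at an unadjusted p under 0.05, and 1.16% of all genes were called. Over the 3 genotypes together, limma's moderated F test called 7 of the 9 genes, against 15.8% of all genes. Hsp90aa1 (adjusted p = 0.358) and Dnajb1 (adjusted p = 0.286) were not called. The 3 comparisons share arrays with each other, so their values stand side by side and are not separate evidence.

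**Figure D2:**
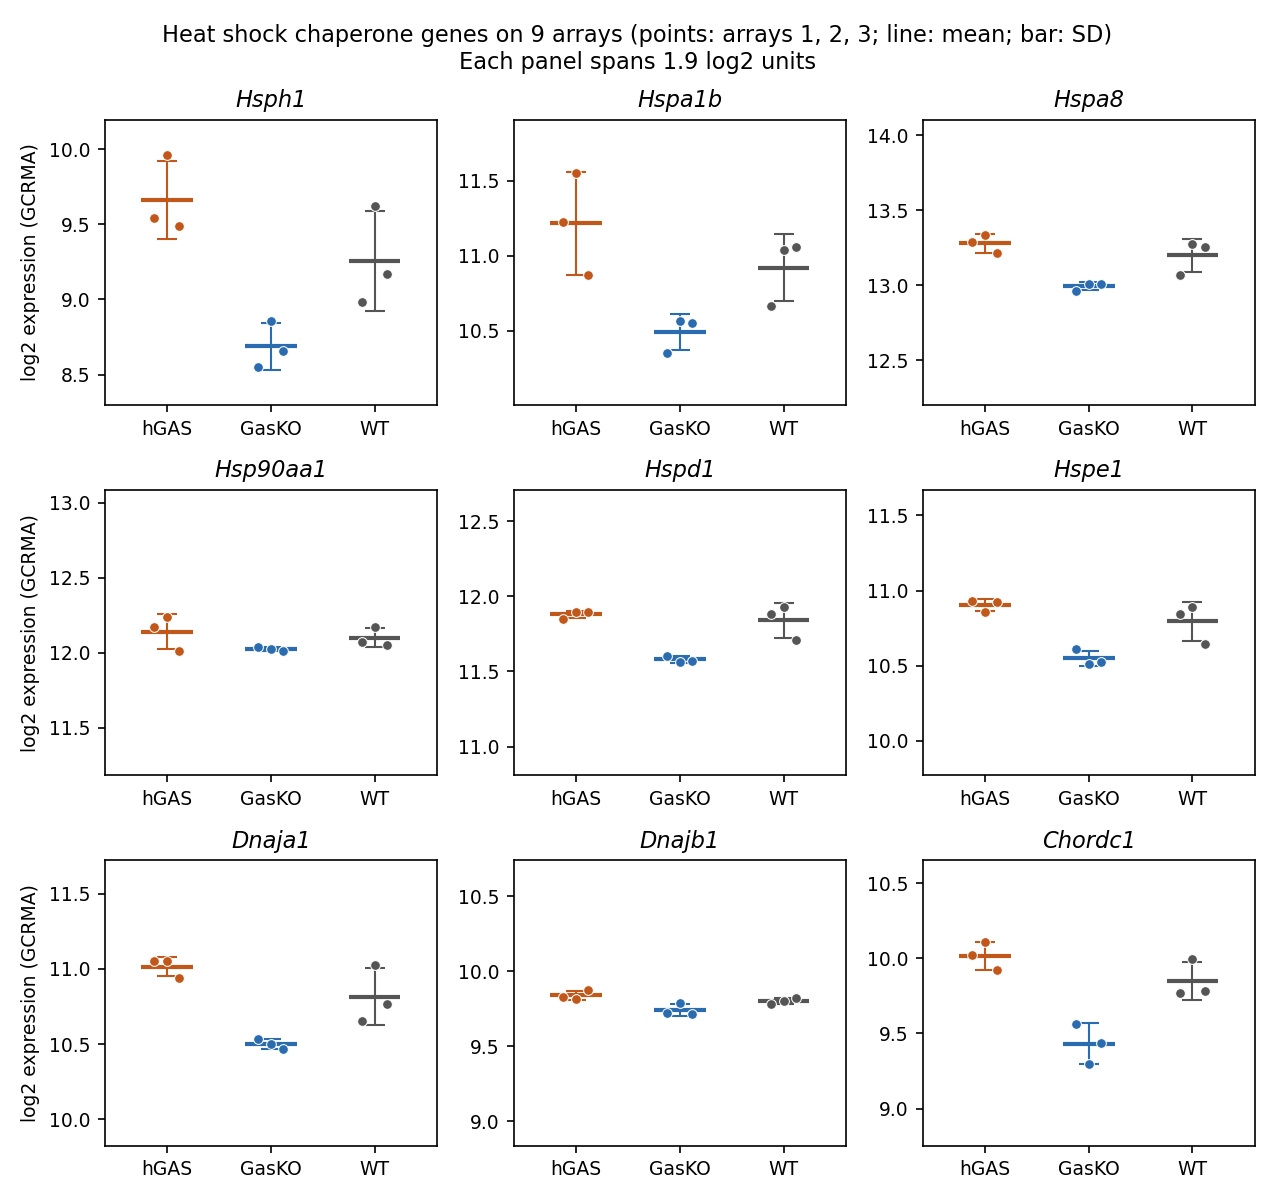
Log2 expression of the 9 chaperone genes on every array, with hGAS, GasKO and WT from left to right. Points are single arrays, thick lines group means and bars the SD (n = 3), and each panel spans the same number of log2 units. GasKO arrays lie below all WT arrays in every panel but that of Dnajb1.

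Hsph1 and Hspa1b, both of the cytosolic Hsp70 machine, had the widest differences of the 9 genes. Hsph1, the Hsp110 gene, stood at 9.54, 9.96 and 9.49 in hGAS arrays, 8.55, 8.86 and 8.66 in GasKO arrays, and 8.98, 9.62 and 9.17 in WT arrays. Every hGAS array was above every GasKO array, and every GasKO array was below every WT array, while hGAS and WT overlapped. Hsph1 rose 1.97-fold in hGAS against GasKO (log2 0.98, SE 0.17, adjusted p = 0.00455). Its log2 difference in GasKO against WT, -0.57, was not called (adjusted p = 0.0648), and neither was that in hGAS against WT, 0.41 (adjusted p = 0.325). A limma fit with the replicate number as a block called both (adjusted p = 0.00235 and 0.0397), but the labels do not say what the numbers mark.

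Hspa1b encodes the Hsp70 that is strongly induced by stress. It stood at 11.22, 11.55 and 10.87 in hGAS arrays, 10.36, 10.57 and 10.55 in GasKO arrays, and 10.66, 11.04 and 11.06 in WT arrays. The hGAS and GasKO arrays did not overlap, although the hGAS arrays were widely spread (SD 0.34). Hspa1b rose 1.65-fold in hGAS against GasKO (log2 0.72, SE 0.16, adjusted p = 0.0154). The call was lost without GasKO replicate 1 (log2 0.65, adjusted p = 0.0651) or hGAS replicate 1 (log2 0.72, adjusted p = 0.0519). GasKO against WT was at -0.43 (adjusted p = 0.132). A near-identical copy, Hspa1a, has its own probe set, and cross-hybridisation between the copies was not tested, so the name of the gene behind these values is uncertain. Hspa1a itself differed by 0.65 in hGAS against GasKO (adjusted p = 0.0573) and was not called.

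Hspa8, the Hsp70 that cells make without stress, differed less. It stood at 13.29, 13.34 and 13.21 in hGAS arrays, 12.96, 13.01 and 13.01 in GasKO arrays, and 13.07, 13.27 and 13.25 in WT arrays. The GasKO arrays were the lowest of the 9 and lay within 0.05 of each other. Hspa8 rose 1.22-fold in hGAS against GasKO (log2 0.29, SE 0.06, adjusted p = 0.00858) and fell by 0.21 on the log2 scale in GasKO against WT (SE 0.06, adjusted p = 0.0461). The fall was not called without any 1 of the GasKO arrays, hGAS replicate 1, WT replicate 2 or WT replicate 3 (adjusted p = 0.0673 to 0.15), and without WT replicate 3 it was at -0.18 (adjusted p = 0.119). Neither call of Hspa8 was kept without probe sets marked in their ID (_s, _x or _a) as matching several transcripts or similar sequences. The rise was then 0.51 (adjusted p = 0.0921) and the fall -0.29 (adjusted p = 0.362).

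The 2 J domain genes differed in their calls by the probe set that stands for each. Other probe sets of both, given below, were called otherwise. Dnaja1 stood at 11.06, 11.05 and 10.94 in hGAS arrays, 10.53, 10.50 and 10.47 in GasKO arrays, and 10.65, 11.03 and 10.77 in WT arrays. GasKO arrays were tightly placed below all others, and WT replicate 2 reached into the hGAS range. Dnaja1 rose 1.43-fold in hGAS against GasKO (log2 0.52, SE 0.08, adjusted p = 0.0029) and fell by 0.32 on the log2 scale in GasKO against WT (SE 0.08, adjusted p = 0.038). The fall was not called without any 1 of the GasKO arrays, hGAS replicate 1 or 2, or WT replicate 2 or 3 (adjusted p = 0.0526 to 0.123), and without WT replicate 3 it was at -0.34 (adjusted p = 0.0596). Dnajb1 stood at 9.83, 9.81 and 9.87 in hGAS arrays, 9.72, 9.79 and 9.72 in GasKO arrays, and 9.78, 9.80 and 9.82 in WT arrays, so that GasKO and WT overlapped. Its log2 differences were 0.10 in hGAS against GasKO (95% interval 0.00 to 0.20, adjusted p = 0.159) and -0.06 in GasKO against WT (-0.16 to 0.04, adjusted p = 0.423).

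On the Hsp90 side, the co-chaperone and the chaperone differed in their calls by the probe set that stands for each. Another probe set of Hsp90aa1, given below, was called in GasKO against WT. Chordc1 stood at 10.02, 10.11 and 9.92 in hGAS arrays, 9.57, 9.30 and 9.44 in GasKO arrays, and 9.77, 9.99 and 9.78 in WT arrays. GasKO lay below the rest, and hGAS and WT overlapped. Chordc1 rose by 0.59 on the log2 scale in hGAS against GasKO (SE 0.09, adjusted p = 0.0017) and fell by 0.42 on the log2 scale in GasKO against WT (SE 0.09, adjusted p = 0.0128). Both calls were kept at an adjusted p under 0.05 in all 20 alternative fits, which include those with 1 array left out. At an adjusted p under 0.01 the fall was not called. Hsp90aa1, the stress-inducible cytosolic Hsp90, stood at 12.17, 12.24 and 12.01 in hGAS arrays, 12.04, 12.02 and 12.01 in GasKO arrays, and 12.07, 12.17 and 12.05 in WT arrays. Its GasKO arrays were all below WT but by a small margin, and hGAS replicate 3 was level with the lowest GasKO array. It differed by 0.12 in hGAS against GasKO (95% interval -0.02 to 0.25, adjusted p = 0.213) and by -0.08 in GasKO against WT (-0.21 to 0.06, adjusted p = 0.465).

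The mitochondrial pair had similar differences. Hspd1, the barrel subunit, stood at 11.85, 11.89 and 11.89 in hGAS arrays, 11.60, 11.57 and 11.57 in GasKO arrays, and 11.88, 11.93 and 11.71 in WT arrays. Hspe1, the lid, stood at 10.93, 10.86 and 10.92 in hGAS arrays, 10.61, 10.51 and 10.53 in GasKO arrays, and 10.84, 10.89 and 10.65 in WT arrays. In both genes the GasKO arrays were the lowest, the hGAS and WT arrays overlapped, and WT replicate 3 was the lowest WT array. Hspd1 rose by 0.30 on the log2 scale in hGAS against GasKO (SE 0.06, adjusted p = 0.00595) and fell by 0.26 in GasKO against WT (SE 0.06, adjusted p = 0.0147). Hspe1 rose by 0.35 in hGAS against GasKO (SE 0.06, adjusted p = 0.00528) and fell by 0.25 in GasKO against WT (SE 0.06, adjusted p = 0.0364). The fall of Hspd1 was not called without GasKO replicate 3, WT replicate 1 or WT replicate 2 (adjusted p = 0.0518 to 0.0562). That of Hspe1 was not called without any 1 of the GasKO arrays, hGAS replicate 1 or 3, or WT replicate 1 or 2 (adjusted p = 0.0523 to 0.121). Without probe sets that have _s, _x or _a in their ID, the fall of Hspe1 was not called (-0.175, adjusted p = 0.188). Its rise was kept there (0.28, adjusted p = 0.0343). Without WT replicate 3 the falls were -0.33 for Hspd1 (adjusted p = 0.00158) and -0.32 for Hspe1 (adjusted p = 0.00545).

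The comparison of hGAS with GasKO, the transgene against the loss of gastrin, called 7 of 9 chaperone genes, all higher. The groups did not overlap in 8 of the 9, all but Hsp90aa1, where 36.7% of all genes did not overlap and 18.2% did so with hGAS higher. The median log2 difference was 0.35, and it was 0.0014 over all genes tested. Without any 1 array the number called was 6 to 8. With probe sets that have _s, _x or _a in their ID left out, 8 genes could be tested and 5 were called. Hsph1 could not be tested there, and Hspa8 was not called (0.51, adjusted p = 0.0921). The replicate numbers deviated together in this comparison, and a fit with the number as a block also called 7.

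The comparison of GasKO with WT, the loss of gastrin, called 5 of 9 genes as lower (Chordc1, Hspd1, Hspe1, Dnaja1 and Hspa8). The groups did not overlap in 8 of 9, against 31.1% of all genes, and 15% with GasKO lower. The median log2 difference was -0.26, and it was 0.0067 over all genes. This count leaned on single arrays: it was 1 without GasKO replicate 3 or WT replicate 2. It was 2 without GasKO replicate 1, GasKO replicate 2 or hGAS replicate 1, and 3 without WT replicate 3. All 9 differences stayed negative in each of these fits. At an adjusted p under 0.05, Chordc1 was called in 20 of 20 alternative fits, Hspd1 in 17, Dnaja1 in 9, and Hspe1 and Hspa8 in 8 each. At an adjusted p under 0.01, 0 of the 9 were called.

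The comparison of hGAS with WT, the transgene, called 0 of 9 genes by limma. The 2 at an unadjusted p under 0.05 were Hsph1 (log2 0.41, 95% interval 0.02 to 0.80) and Dnaja1 (0.20, interval 0.01 to 0.39). All 9 means were higher in hGAS, with a median log2 difference of 0.11 against 0.008 over all genes, but the groups overlapped in all 9, where 17.7% of all genes did not overlap. The intervals were narrow for Dnajb1 (-0.06 to 0.14) and Hspd1 (-0.09 to 0.16) and wide for Hspa1b (-0.07 to 0.66). They did not exclude a 1.5-fold difference for Hspa1b or Hsph1.

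**Figure D3:**
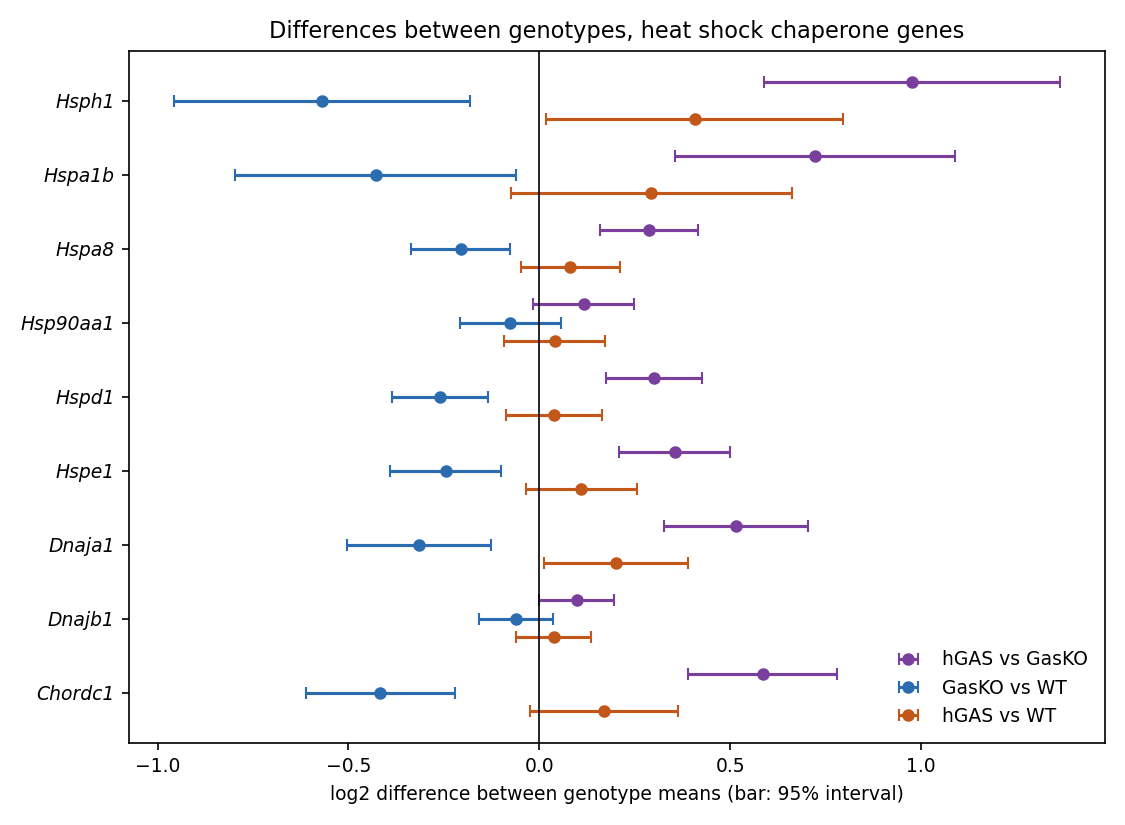
Log2 differences between genotype means for the 9 chaperone genes, with 95% intervals from the limma fit. hGAS against GasKO is drawn in purple, GasKO against WT in blue and hGAS against WT in orange. The purple points lie right of 0 in every gene and the blue points left of it, and 7 of the 9 orange intervals include 0.

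The tested probe sets kept to these directions more closely than to the calls. Over 19834 probe sets tested in a fit of their own, 13 of the 21 chaperone probe sets rose in hGAS against GasKO, where 14.7% of all probe sets were called and 7.15% were called as higher. All 21 were higher, and the groups did not overlap in 19, against 34.5% of all probe sets. In GasKO against WT 7 of 21 fell, where 11% were called and 5.27% were called as lower. All 21 were lower and 17 did not overlap, against 30.6%. In hGAS against WT 0 of 21 were called, where 0.872% of all were, with 3 at an unadjusted p under 0.05. Of the 21, 18 were higher and 3 lower, and the groups did not overlap in 1, Hspe1 1422579_at, against 17.2% of all probe sets.

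Probe sets of one gene did not always give the same call. A second Dnajb1 probe set, 1416756_at, stood at 9.23, 9.02 and 9.20 in hGAS arrays, 8.80, 8.79 and 8.91 in GasKO arrays, and 9.02, 9.22 and 9.08 in WT arrays, with GasKO below all others. It rose by 0.32 on the log2 scale in hGAS against GasKO (adjusted p = 0.0233) and fell by 0.27 in GasKO against WT (adjusted p = 0.0494), unlike 1416755_at, the probe set that represents Dnajb1 above. The Hsp90aa1 probe set 1437497_a_at stood at 11.50, 11.51 and 11.42 in hGAS arrays, 11.22, 11.35 and 11.17 in GasKO arrays, and 11.46, 11.71 and 11.43 in WT arrays. It fell by 0.28 in GasKO against WT (adjusted p = 0.0465), whereas 1426645_at, at -0.27 (adjusted p = 0.0722), and 1438902_a_at, at -0.08 (adjusted p = 0.467), were not called. Another 2 Hsp90aa1 probe sets stayed near background, 1433251_at at 1.67 in hGAS, 1.68 in GasKO and 1.68 in WT, and 1441827_x_at at 2.82, 2.79 and 2.80 in the same order. For Dnaja1, the probe set 1416288_at carried both calls, and the other 2 carried none. 1459835_s_at differed by 0.33 in hGAS against GasKO, where the groups overlapped (adjusted p = 0.165), and by -0.19 in GasKO against WT (adjusted p = 0.456). 1460179_at differed by 0.22 (adjusted p = 0.174) and -0.17 (adjusted p = 0.322), and the mean of the Dnaja1 probe sets was not called in GasKO against WT (-0.22, adjusted p = 0.204). For Hspa8, 2 of 4 probe sets were not called in hGAS against GasKO, 1431182_at (0.51, adjusted p = 0.1) and 1455789_x_at (0.17, adjusted p = 0.256). Of the 4, 3 were not called in GasKO against WT, 1420622_a_at (-0.20, adjusted p = 0.21), 1431182_at (-0.29, adjusted p = 0.361) and 1455789_x_at (-0.29, adjusted p = 0.0754). Of the 2 Hspe1 probe sets, 1422579_at was called in hGAS against GasKO (0.28, adjusted p = 0.0379) and not in GasKO against WT (-0.17, adjusted p = 0.192). Hsph1 and Hspa1b were called in hGAS against GasKO with each of their probe sets, 1423566_a_at and 1425993_a_at for Hsph1 (log2 1.03 and 0.98), and 1427126_at, 1427127_x_at and 1452318_a_at for Hspa1b (0.87, 0.69 and 0.72).

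**Figure D4:**
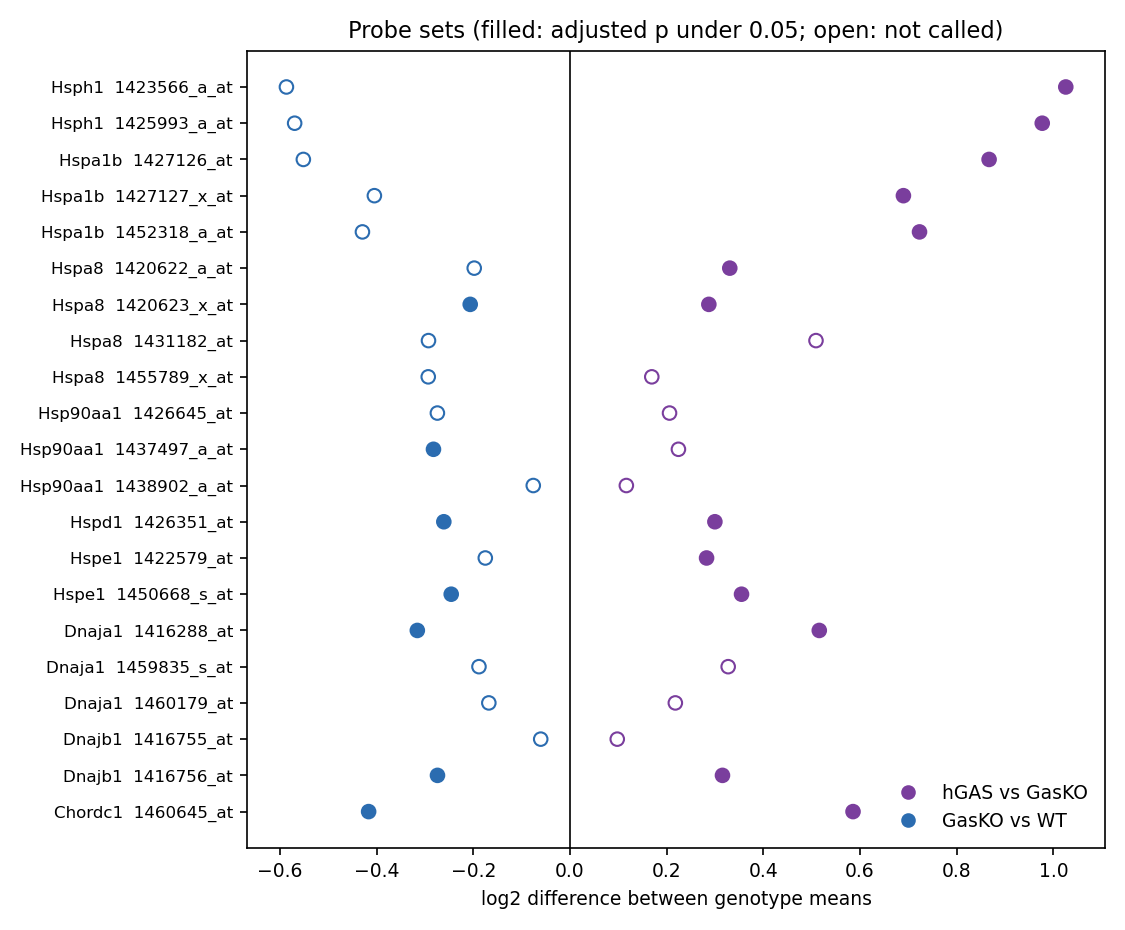
Log2 differences of the 21 tested chaperone probe sets in hGAS against GasKO (purple) and GasKO against WT (blue). Filled points have an adjusted p under 0.05 over all probe sets tested. Every purple point lies above 0 and every blue point below it, and probe sets of Hspa8, Hsp90aa1, Hspe1, Dnaja1 and Dnajb1 differ in their calls.

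Single arrays differed in the chaperone genes as a group. The mean over the 9 genes of the log2 value minus each gene's own mean over all arrays was 0.19, 0.29 and 0.11 in hGAS arrays, -0.25, -0.23 and -0.25 in GasKO arrays, and -0.05, 0.17 and 0.01 in WT arrays. The GasKO arrays were almost level, and WT replicate 2 was higher than hGAS replicate 3. Of the 9 genes, WT replicate 2 held the highest WT value in 7 and WT replicate 1 the lowest in 6. hGAS replicate 2 held the highest hGAS value in 5 and hGAS replicate 3 the lowest in 6. The median SD of the genes was 0.066 in hGAS, 0.038 in GasKO and 0.127 in WT, against 0.093, 0.080 and 0.093 over all genes tested.

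The rest of the chaperone system, and the immediate early genes, were read from lists chosen with earlier results of these data known. Of 121 such genes tested, 12 of them immediate early genes, 14 were called in hGAS against GasKO, where 16.6% of all genes were called. In GasKO against WT 3 were called, where 12.1% of all genes were. Both counts are below the share over all genes, so the single genes named next are values and not a result about the lists. In hGAS against WT 0 were called by limma, and 15 were at an unadjusted p under 0.05. Hsbp1, which encodes a binding partner of heat shock factor 1, was not called (log2 0.12 in hGAS against GasKO, adjusted p = 0.128). Hsf2, a second heat shock factor, was near background, at 2.70 in hGAS, 2.69 in GasKO and 2.70 in WT, and Hsf1 had no probe set named for it here. Of 8 other Hsp70 and Hsp110 genes, 0 were called by limma in any comparison (1 at an unadjusted p under 0.05 in hGAS against GasKO and 1 in GasKO against WT), with median log2 differences of 0.02 in hGAS against GasKO and -0.08 in GasKO against WT.

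Among 12 genes that help the Hsp70 cycle, such as nucleotide exchange factors, only Bag2 was called. Bag2 stood at 7.61, 7.47 and 7.63 in hGAS arrays, 6.19, 6.98 and 6.45 in GasKO arrays, and 6.93, 7.16 and 7.25 in WT arrays, with GasKO replicate 2 inside the WT range. It rose by 1.03 on the log2 scale in hGAS against GasKO (adjusted p = 0.00385), and the list's median was 0.06. Of 32 other J domain genes, Dnajc21 (log2 0.25, adjusted p = 0.0403) and Dnajc22 (0.20, adjusted p = 0.0477) rose and Dnajb14 fell (-0.44, adjusted p = 0.0175) in hGAS against GasKO. In that comparison the Dnajc21 probe set 1457281_at (0.06, adjusted p = 0.718) and the Dnajb14 probe set 1429468_at (-0.06, adjusted p = 0.726) were not called. The Dnajc22 probe set 1429773_at rose (0.32, adjusted p = 0.0161). Dnajc11, whose product sits in mitochondria, fell in GasKO against WT (-0.31, adjusted p = 0.00669), and a second Dnajc11 probe set, 1433881_at, fell by 0.79 (adjusted p = 0.00355).

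Of 16 Hsp90 co-chaperone genes, Ahsa2, related to an activator of Hsp90's ATPase (0.51, adjusted p = 0.00272), and Ttc4 (0.52, adjusted p = 0.0117) rose in hGAS against GasKO. Cdc37, which brings kinases to Hsp90, fell in GasKO against WT (-0.29, adjusted p = 0.0178). The other 15 were not called in GasKO against WT, and the list's median was 0.10 in hGAS against GasKO and -0.09 in GasKO against WT.

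Few genes were called among the cytosolic chaperonin and the chaperones of mitochondria and the endoplasmic reticulum. Among 15 genes of the cytosolic chaperonin and prefoldin, Pfdn4 rose (0.32, adjusted p = 0.0427) and Uri1 fell (-0.27, adjusted p = 0.018) in hGAS against GasKO. The Uri1 probe sets 1419274_at (-0.18, adjusted p = 0.243) and 1433913_at (-0.08, adjusted p = 0.454) were not called there. Clpp, a mitochondrial protease subunit, fell in that comparison (-0.29, adjusted p = 0.0165), 1 of 13 mitochondrial genes called. Pdia3, a disulphide isomerase of the endoplasmic reticulum, fell there too (-0.20, adjusted p = 0.021), 1 of 13 endoplasmic reticulum genes called. The Clpp probe set 1416615_at (-0.18, adjusted p = 0.0965) and the Pdia3 probe set 1445330_at (-0.08, adjusted p = 0.638) were not called in that comparison. At an unadjusted p under 0.05 there were 2 chaperonin and prefoldin, 2 mitochondrial and 4 endoplasmic reticulum genes in hGAS against GasKO. In GasKO against WT 0 genes of these 3 lists were called by limma, with 3, 4 and 2 at an unadjusted p under 0.05, and the medians were -0.03, -0.02 and -0.04.

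Small heat shock proteins hold unfolded proteins without using ATP. Of 6 tested, Hspb7 was called, at 7.73, 7.78 and 7.53 in hGAS arrays, 4.92, 4.03 and 4.65 in GasKO arrays, and 7.51, 7.53 and 7.83 in WT arrays. It rose by 3.15 on the log2 scale in hGAS against GasKO and fell by 3.09 in GasKO against WT (adjusted p = 8e-06 and 1e-05). Its other probe sets, 1421289_at and 1421290_at, stood at -0.49 and -0.07 in GasKO against WT and were not called (adjusted p = 0.322 and 0.759). Immediate early genes, which respond within minutes to growth factors or handling of tissue, moved in both directions in hGAS against GasKO. Of 12 tested, Dusp1 (0.51, adjusted p = 0.0174) and Jun (0.42, adjusted p = 0.0198) rose, Junb fell (-0.35, adjusted p = 0.0452), and 0 were called by limma in GasKO against WT (1 at an unadjusted p under 0.05). The Jun probe set 1448694_at was not called in hGAS against GasKO (0.28, adjusted p = 0.057).

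**Figure D5:**
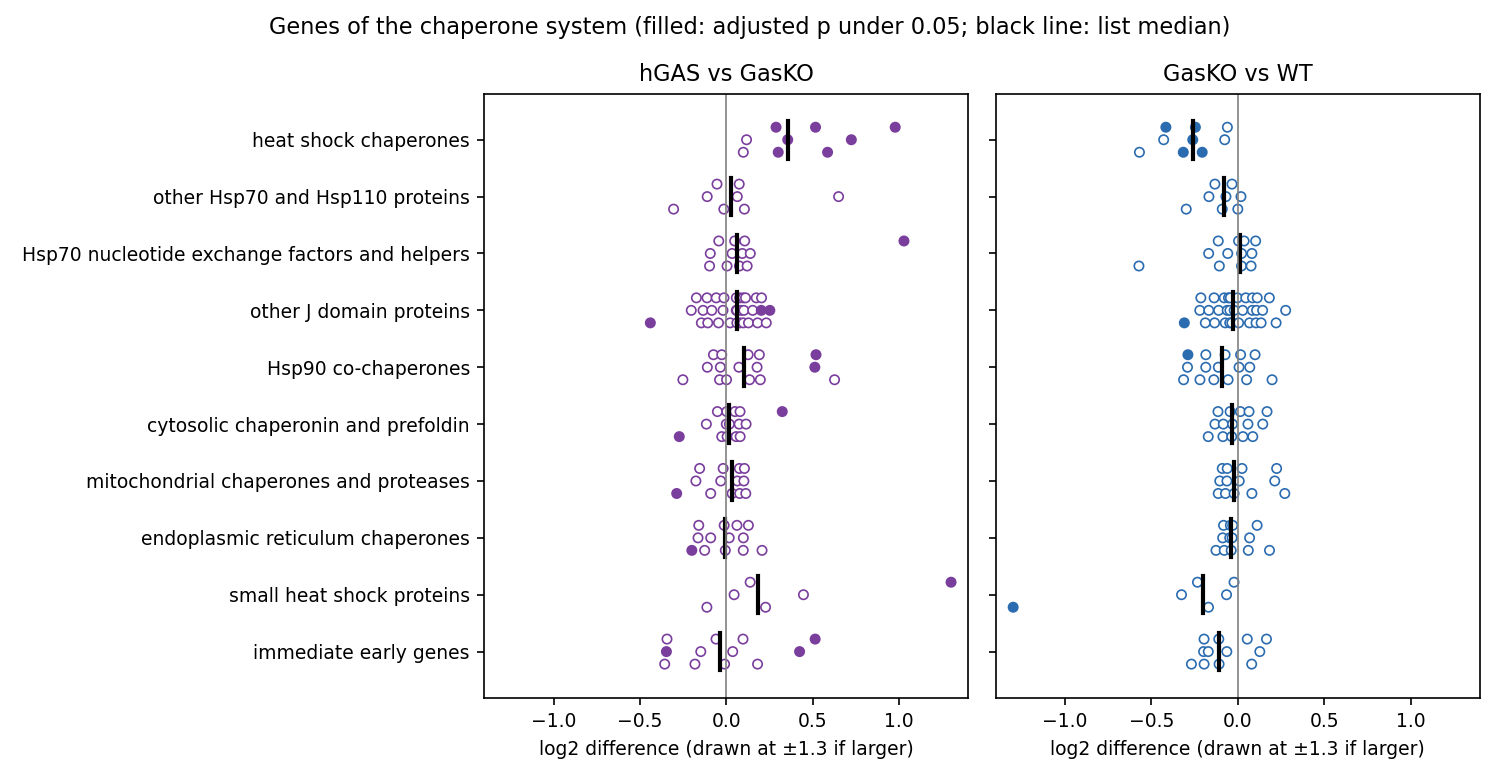
Log2 differences of single genes of the chaperone system and of immediate early genes, one list per line, in hGAS against GasKO (left) and GasKO against WT (right). Filled points have an adjusted p under 0.05 over all genes, black lines are list medians, and Hspb7 is drawn at the edge. The chaperone genes described here (top line) have a median of 0.35 on the left and -0.26 on the right.

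Other measures moved with the same genotypes. B cell markers had list scores, computed as for the chaperone genes, of -1.55 to -0.96 in hGAS, 0.77 to 1.47 in GasKO and -0.03 to 0.60 in WT arrays. All 5 tested fell in hGAS against GasKO, 3 fell in hGAS against WT and 3 rose in GasKO against WT. Of 7 myeloid markers 5 fell in hGAS against GasKO and 4 rose in GasKO against WT, with scores of -0.36 to 0.03 in hGAS, 0.23 to 0.39 in GasKO and -0.17 to -0.05 in WT. Of 6 plasma cell markers 4 rose and 1 fell in GasKO against WT, and scores were -0.13 to 0.23 in hGAS, 0.30 to 0.54 in GasKO and -0.95 to -0.29 in WT. Of 7 fibroblast markers Pdgfra, Dcn and Col14a1 fell in hGAS against GasKO (log2 -0.37, -0.29 and -0.23) and rose in GasKO against WT (0.38, 0.26 and 0.25). The list was split, with 3 lower and 4 higher in hGAS against GasKO (median 0.01). In GasKO against WT 2 were lower and 5 higher (median 0.25). Fibroblast scores overlapped, at -0.01 to 0.04 in hGAS, -0.03 to 0.11 in GasKO and -0.15 to 0.07 in WT. The 3 adipocyte markers tested were higher in GasKO than in WT without overlap, and 0 were called by limma (3 at an unadjusted p under 0.05), with scores of -0.77 to 0.64 in hGAS, 0.42 to 1.37 in GasKO and -1.56 to 0.09 in WT. Among 7 crypt base and stem cell markers, Lgr5 (0.88) and Rgmb (0.53) rose and Axin2 fell (-0.52) in hGAS against GasKO. Lgr5 (-0.94) and Rgmb (-0.49) fell and Cd44 rose (0.24) in GasKO against WT, and crypt scores were 0.01 to 0.08 in hGAS, -0.11 to -0.05 in GasKO and -0.08 to 0.11 in WT. None of 7 T cell markers reached the level needed for testing, with Cd3e at 2.28 in hGAS, 2.34 in GasKO and 2.26 in WT. Smooth muscle scores overlapped between all genotypes, at -0.05 to 0.10 in hGAS, -0.13 to 0.09 in GasKO and -0.07 to 0.14 in WT. Of 13 colonocyte markers 2 rose and 2 fell in hGAS against GasKO, and 2 rose and 2 fell in GasKO against WT. Their scores overlapped, at -0.05 to 0.05 in hGAS, 0.01 to 0.02 in GasKO and -0.03 to 0.04 in WT. As a sign of RNA quality, the 3′ control probe set of Gapdh minus its 5′ one gave a log2 difference of -0.102 ± 0.045 in hGAS, -0.105 ± 0.015 in GasKO and -0.159 ± 0.019 in WT (SD, n = 3 each). The same difference for actin was larger, at 0.90 ± 0.03 in hGAS, 0.90 ± 0.04 in GasKO and 0.83 ± 0.06 in WT. The part of these measures in the chaperone differences was not tested.

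Outside the family, the 6 named genes whose profile over the 9 arrays came nearest to the mean chaperone profile were Zbtb2, Pgap6, Sft2d1, Fastkd3, Atoh1 and Ubfd1. Likeness was the root mean square difference between centred log2 values, 0.060 for Zbtb2 and 0.072 for Ubfd1, against a median of 0.228 over 11265 other genes. Among the chaperone genes themselves it reached 0.264. Atoh1, the factor that starts the secretory lineage, stood at 10.06, 10.10 and 10.13 in hGAS arrays, 9.58, 9.73 and 9.70 in GasKO arrays, and 9.80, 10.01 and 9.94 in WT arrays, so that no 2 groups overlapped. The 6 genes were picked by these same values, so their differences between genotypes follow from the choice and are not a separate result. With that limit, Atoh1 was higher by 0.43 on the log2 scale in hGAS against GasKO (limma adjusted p = 0.0018). It is also 1 of 9 goblet cell markers, of which 5 were lower and 4 higher in that comparison (median -0.03). Of these 9, only Atoh1 was called as higher, and 3 were called as lower (Tff3, Fcgbp and Clca1).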

How the data were processed

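Colonic mucosa of 3 genotypes was measured on 9 Affymetrix mouse arrays of 45101 probe sets, 3 arrays per genotype. The authors deposited log2 values that they made with GCRMA (version not stated), per the submitters' processing notes. Genes came from the platform's annotation, which gave 1 gene to 34958 probe sets, several to 932 and none to 9211, of which 51 were controls. The last 2 kinds were left out. A gene was tested if at least 3 arrays reached log2 4. limma 3.58.1 in R 4.3.3 (data.table version 1.17.8) fitted genotype to all 9 arrays (lmFit, eBayes with a mean-variance trend, 6 residual degrees of freedom and a prior of 3.47). Tests were 2-sided, and p-values were adjusted by Benjamini-Hochberg over 11274 genes, or 19834 probe sets in a separate fit. The number of arrays limits the precision.

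The chaperone genes and the lists were chosen with earlier results of these data known. Of 242 other list entries 235 matched a probe set. Named genes were all chaperone genes, Gast, Hsf1 and Hsf2, up to 3 called genes per pathway list and the 6 nearest profiles. Some markers were named where their list is mentioned. Any other name, such as Hspa1a or Hsbp1, was chosen after its values were seen. The fit was tested on simulated data. Same-numbered arrays of hGAS and GasKO deviated together (correlations 0.117, 0.201 and 0.267), and a set all above 0.1 was taken as pairing. The correlations were 0.254, 0.0838 and 0.203 for hGAS and WT, and 0.15, -0.00557 and 0.145 for GasKO and WT. These did not all exceed 0.1, but pairing with WT is not excluded. Alternatives covered the filter, scaling, probe set choice, eBayes settings, weights, arrays fitted, thresholds, a replicate block and leaving out each array. Promoter sequences are RefSeq's (GRCm38.p6); the files name no build. Figures used matplotlib 3.10.9 in Python 3.11.15 (pandas 2.3.3).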

Additional observations from a re-analysis of the deposited data

How the results depend on the processing

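In GasKO against WT the number of chaperone genes called, 5, became 2 with no filter on low values, 2 with a gene's probe sets averaged, 2 with no mean-variance trend and 2 with only the 6 arrays of both groups fitted. It was 3 with only probe sets free of _s, _x or _a in their ID and 0 at an adjusted p under 0.01. Leaving out 1 array gave 1 to 5. Leaving out 1 array gave 845 to 1372 genes called of all genes in GasKO against WT (1366 with every array), 1167 to 1995 in hGAS against GasKO (1866) and 1050 to 1748 by the F test (1785). In hGAS against WT the 131 genes called became 58 with no filter, 27 with 6 arrays and 17 to 104 without 1 array. The 173 probe sets called there became 51 with no filter. With the replicate number as a block, 283 genes and 1 chaperone gene, Hsph1 (adjusted p = 0.0397), were called in hGAS against WT. In GasKO against WT the block called 6, adding Hsph1 (adjusted p = 0.00235). It changed no call of a chaperone gene in hGAS against GasKO. Of 9 arrays, 6 correlated best with their own number in both other groups. In hGAS against GasKO the alternatives called 5 to 8 chaperone genes. Uncalled differences changed sign in hGAS against WT for Hsp90aa1 (0.04), at -0.013 with probe sets averaged, -0.068 with only probe sets free of _s, _x or _a in their ID and -0.0073 to 0.106 without 1 array. They did so for Hspd1 (0.04), at -0.027 to 0.084 without 1 array. Among comparisons of a chaperone gene's reported difference with its value in another setting, 485 kept their direction and side of the threshold. A further 41 lost a call, 7 gained one and 4 changed sign. Scaling moved the median of all genes by less than 0.02 on the log2 scale. The causes were not tested. All 9 genes lay above the floor of log2 4 on every array.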

Other observations

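The heat shock element search also returned genes outside the chaperone family, a grouping made after the data were seen. Besides Hspd1, Hspe1 and Chordc1, the genes with 4 or more units that were tested were Arpc2, a subunit gene of an actin-nucleating complex, Fam149a and Kctd18. Arpc2 differed by -0.06 in hGAS against GasKO and by -0.0014 in GasKO against WT on the log2 scale (adjusted p = 0.423 and 0.992). Fam149a differed by -0.06 and -0.24 (adjusted p = 0.767 and 0.2), and Kctd18 by 0.09 and 0.21 (adjusted p = 0.742 and 0.455), and none was called. Of 50 tested genes outside the family with at least 3 units, 6 rose (12%) and 2 fell (4%) in hGAS against GasKO, and 4 rose (8%) and 5 fell (10%) in GasKO against WT. Of 7859 genes with no run, 8.39% rose and 8.11% fell in hGAS against GasKO, and 6.16% rose and 5.65% fell in GasKO against WT. These differences in share were not tested. The median log2 differences were -0.03 and -0.0006 with at least 3 units, and 0.0037 and 0.0035 with no run.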
